A study of Mus musculus with 6 samples.

Results

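The 9 genes described here are Shh, Ihh, Ptch1, Smo, Sufu, Hhip, Gli1, Gli2 and Gli3, which encode the ligands, receptor, transducer, inhibitors and transcription factors of the Hedgehog pathway. They were taken by name from the 55385 mouse genes counted in bulk RNA-seq libraries of PDVC57, an established mouse squamous carcinoma line of keratinocyte origin, and all 9 were found. The labels assign 3 libraries to Sox2 KO, in which the stem cell transcription factor gene Sox2 is disrupted, and 3 to Sox2 overexpression. No library of unmodified cells is among them, so a fall or rise below means overexpression relative to knockout. Which of the groups departs from unmodified cells cannot be told. Per the design text, grafted tumours were the source of the cells, which differed in Sox2 level, and the question was how Sox2 acts through tumour cells on neutrophils. No other allele or agent is named, and the clones, the construct, the host animals, their age and the sorting of the cells are not given in the sources used here. Nothing states that the libraries of a group came from separate tumours, so p-values measure the spread between these libraries, which may be technical.

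In the Hedgehog pathway, a secreted ligand such as Sonic hedgehog binds the receptor Patched1 and so relieves Smoothened from inhibition at the primary cilium. Active Smoothened frees Gli2 and Gli3 from Sufu, which holds and processes them, and Gli1, Ptch1 and Hhip are transcribed in response. In skin, the growing hair follicle epithelium is a known source of Sonic hedgehog, and cells of the follicle and the dermis around it respond. The pathway is best known in skin tumours for its role in basal cell carcinoma.

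Library totals lay between 31247976 and 38543221 counts over mouse genes, and 18504 genes passed the filter on low counts. Counts of Sox2 itself were 49 or fewer in each knockout library and 2566 or more in each overexpression library, so the targeted gene separated the groups as labelled. Libraries also differed in markers of other cells. The summed level of 10 fibroblast markers was 56000 to 83800 CPM (counts scaled to the effective library size) with knockout and 255 to 404 CPM with overexpression, and that of 37 epithelial markers was 8480 to 13300 and 22700 to 28300 CPM. Epithelial markers were therefore present in every library, as the label of a keratinocyte-derived line requires, and none of the 10 fibroblast markers was at 0 in any library. In bulk RNA, a change in the number of cells of a type and a change in RNA per cell cannot be told apart.

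Promoter sequences from RefSeq (GRCm38.p6, 250 bases before to 50 after the start site) were matched by symbol for 7 of the 9 genes. They are shown for Gli2 and Hhip, which were both far lower with Sox2 overexpression, and for Ptch1, which was higher. The Gli consensus GACCACCCA was searched on both strands and was in none of the 7 windows, against 0.253% of 32851 promoters of the same length. After that search gave no match, its inner letters were searched as well. ACCACCC lay in the Gli2 window alone among the 7, and in 4.61% of all promoters. CCACCC, which every match of the longer patterns contains, lay in 5 of the 7 windows (Gli2, Gli3, Hhip, Ihh and Smo) and in 31.5% of all promoters. The Gli2 window is chr1:119053570-119053869, the Hhip window chr8:80057959-80058258 and the Ptch1 window chr13:63565686-63565985, all on the minus strand and read 5′ to 3′. Capitals mark the longest pattern found, on either strand, and the Ptch1 window has none.
Gli2: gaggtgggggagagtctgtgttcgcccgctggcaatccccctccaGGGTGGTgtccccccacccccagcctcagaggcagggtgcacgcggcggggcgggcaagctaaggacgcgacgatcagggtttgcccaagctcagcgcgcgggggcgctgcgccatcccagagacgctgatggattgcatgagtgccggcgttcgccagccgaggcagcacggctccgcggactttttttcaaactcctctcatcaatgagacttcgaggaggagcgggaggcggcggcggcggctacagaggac
Hhip: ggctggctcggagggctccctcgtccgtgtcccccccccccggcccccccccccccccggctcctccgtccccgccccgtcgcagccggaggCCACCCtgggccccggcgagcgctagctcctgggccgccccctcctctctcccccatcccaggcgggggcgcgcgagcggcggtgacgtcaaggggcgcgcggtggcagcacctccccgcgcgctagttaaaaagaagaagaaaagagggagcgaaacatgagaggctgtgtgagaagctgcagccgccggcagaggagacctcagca
Ptch1: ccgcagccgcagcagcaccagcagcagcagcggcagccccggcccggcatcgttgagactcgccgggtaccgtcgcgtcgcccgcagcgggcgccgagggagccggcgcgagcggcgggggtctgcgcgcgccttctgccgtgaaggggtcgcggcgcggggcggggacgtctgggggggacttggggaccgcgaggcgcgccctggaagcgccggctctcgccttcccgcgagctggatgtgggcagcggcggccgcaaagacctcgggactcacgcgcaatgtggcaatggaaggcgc
The RefSeq start of Ptch1 lies 7863 bases inside the 5′ end of the gene in GENCODE M21, so this window belongs to 1 of several start sites. A match describes these letters and shows no binding.

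Gli2, Gli1 and Hhip were far lower with Sox2 overexpression than with knockout, and Ptch1 was higher by less than 2-fold by the fitted change. Of the 9 genes, 7 passed the filter, and 1 was higher and 3 were lower at an adjusted p under 0.05 (edgeR quasi-likelihood test, Benjamini-Hochberg adjustment over all tested genes). Among all tested genes, 13.6% were called higher, 18.0% lower and 31.6% in either direction, so 4 of 7 is above that share in a set too small to read further. The median log2 fold change of the 7 was -0.32, against -0.02 for all tested genes. The groups did not overlap for 5 of the 7, where 50.9% of tested genes had groups that did not overlap.

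**Figure D1:**
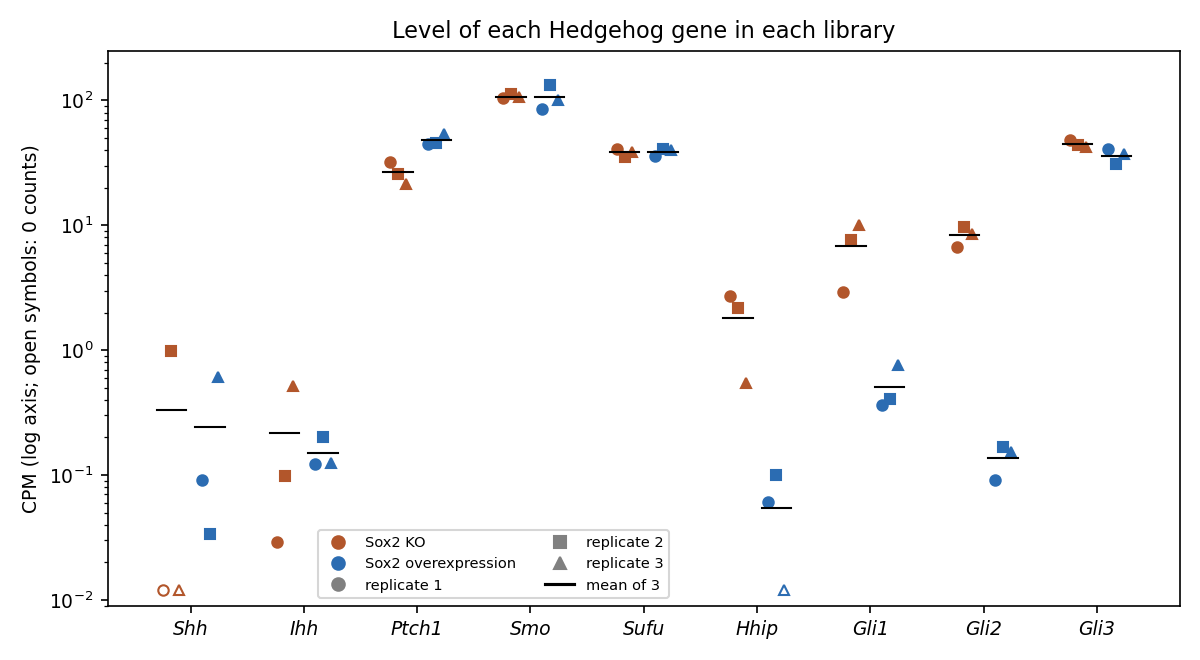
Level of each of the 9 Hedgehog genes in each library, in CPM on a log axis, with 1 symbol per library, a bar at the mean of 3 libraries and open symbols for 0 counts drawn at the foot of the axis. Smo, Sufu and Gli3 lie near each other in the groups, Ptch1 is higher in all 3 overexpression libraries, and Hhip, Gli1 and Gli2 are lower in all 3.

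The ligand genes had at most 30 counts in any library. Shh (chromosome 5, 28456815 to 28467256, minus strand), the main ligand of skin, was counted 0, 30 and 0 times in the knockout libraries, in replicate order, and 3, 1 and 24 times in the overexpression libraries. Most of its counts came from 1 library of each group, and the groups overlapped. A count of 0 allows up to 0.0879 CPM in knockout replicate 1 and 0.0822 CPM in replicate 3, a limit that covers counting error only. Ihh (chromosome 1, 74945315 to 74951672, minus strand), a ligand best known in bone and gut, had 1, 3 and 19 counts with knockout and 4, 6 and 5 with overexpression. Neither gene passed the filter. With no filter beyond 1 count in total, the adjusted p was 0.856 for Shh and 0.771 for Ihh (edgeR), and no difference was detectable beyond the spread between libraries. The knockout mean of Shh was 0.331 CPM, and 0 without replicate 2. Its overexpression mean was 0.244 CPM, and 0.0627 CPM without replicate 3. The knockout mean of Ihh was 0.216 CPM, and 0.0643 CPM without replicate 3.

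Knockout replicate 2, the library with most Shh counts, also stood apart in some genes of the hair follicle. A list of 10 markers of follicle epithelium, written after the Shh counts and some of these genes had been seen, summed to 34.7 CPM in that library and to 6.3 to 14.0 CPM in the other libraries, with the 14.0 CPM in overexpression replicate 3, where Tchh alone gave 10.7 CPM. Krt71, a keratin of the inner root sheath, had 392 counts in knockout replicate 2 and at most 6 in any other library. Krt25, of the same sheath, had 143 counts there, 8 in overexpression replicate 3 and at most 1 elsewhere. Krt75, a keratin of the companion layer, had 97 counts there and at most 5 elsewhere. Lhx2 had 47 counts there and at most 5 elsewhere, Msx2 38 and at most 16, and Hoxc13 7 and at most 1. In knockout replicates 1 and 2, Krt27 was at 1.67 and 1.65 CPM and Dlx3 at 1.79 and 1.88 CPM, so neither set replicate 2 apart. Tchh did not peak there, with 131 counts in knockout replicate 2 against 188 or more in each overexpression library. Krt35, a hair cortex keratin, had 88 counts in knockout replicate 2 and 57 in overexpression replicate 3, the libraries with most Shh counts, and at most 11 elsewhere. The part of follicle cells in the Shh counts was not tested.

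**Figure D2:**
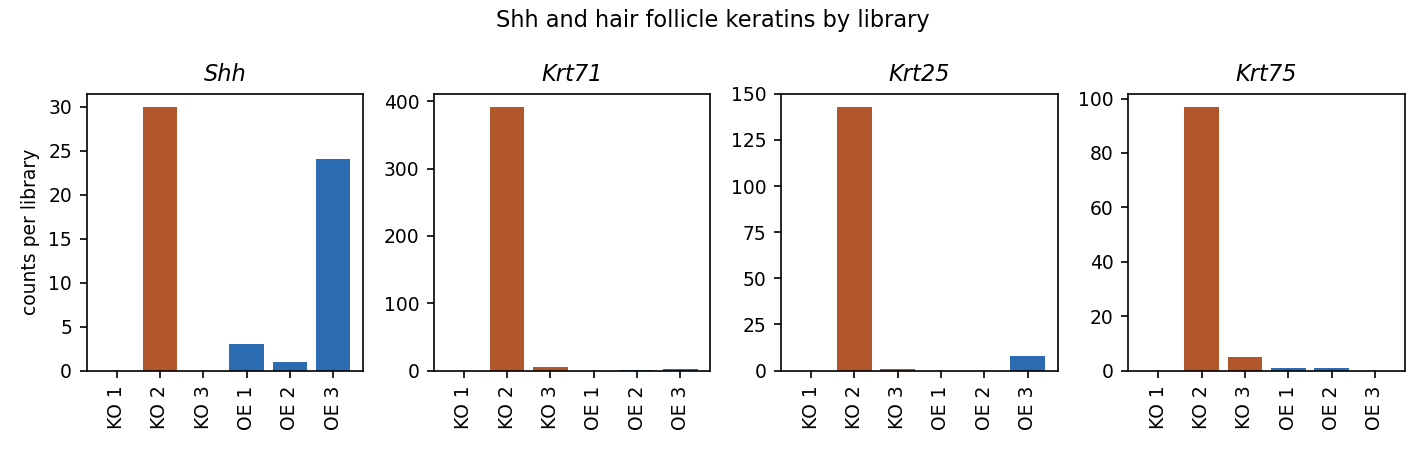
Counts of Shh and of 3 follicle keratins in each library (KO, Sox2 KO; OE, Sox2 overexpression; 1 bar per library, each panel on its own axis from 0). The 30 Shh counts of knockout replicate 2 stand beside 392 counts of Krt71, while the 24 Shh counts of overexpression replicate 3 stand beside 2. The keratins shown are those that peak most sharply in knockout replicate 2. Krt27 and Krt35 of the same list are not shown. Krt27 did not set that library apart, and Krt35 also had 57 counts in overexpression replicate 3.

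The receptor gene Ptch1 (chromosome 13, 63508328 to 63573598, minus strand) rose with overexpression. Its level was 32.4, 25.7 and 21.6 CPM in knockout replicates 1, 2 and 3, and 45.0, 45.6 and 53.9 CPM in overexpression replicates 1, 2 and 3. The lowest overexpression value exceeded the highest knockout value. The mean went from 26.6 ± 5.47 to 48.2 ± 4.98 CPM (SD, n = 3 each), a 1.81-fold rise (log2 fold change, written log2 change from here, 0.86, standard error, SE, 0.18, edgeR adjusted p = 0.00772). The call held in each of the 6 fits that left out 1 library, but when libraries were scaled to the epithelial markers the log2 fold change of Ptch1 was -0.33 (adjusted p = 0.182). That scaling moved the median of all tested genes from -0.02 to -1.22, and Ptch1 lay 0.87 above the median with TMM, the scaling used otherwise, and 0.89 above it under the scaling. Rescaling libraries shifts all genes by nearly the same amount, so this distance stays nearly fixed and does not test the rise. With TMM, the 37 epithelial markers all had positive log2 fold changes, with a median of 1.14, above that of Ptch1. The part of epithelial cells in the rise of Ptch1 was not tested.

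Smo and Sufu, the members with the highest levels per length of gene, showed no detectable difference. Smo (chromosome 6, 29735503 to 29761365, plus strand), which encodes the transducer Smoothened, had 104, 112 and 106 CPM with knockout and 84.8, 134 and 101 CPM with overexpression. The overexpression libraries lay on both sides of the knockout libraries, and the log2 change was -0.01 (edgeR adjusted p = 0.975; -0.38 to 0.36 at 2 standard errors). Sufu (chromosome 19, 46396896 to 46488804, plus strand), the inhibitor that binds Gli proteins, had 41.2, 35.5 and 38.6 CPM with knockout and 35.9, 41.0 and 39.8 CPM with overexpression. The groups overlapped and the log2 change was 0.02 (edgeR adjusted p = 0.937; -0.27 to 0.30 at 2 standard errors). The fitted change of Ptch1 lies outside both intervals. Under the scaling to epithelial markers both genes were lower past the threshold, at -1.24 for Smo and -1.20 for Sufu (edgeR adjusted p = 0.000674 for each), which is -0.01 and 0.02 from the median of all genes. These distances too are nearly fixed under rescaling and test neither gene.

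Hhip (chromosome 8, 79965851 to 80058006, minus strand), which encodes a surface protein that binds Hedgehog ligands and blunts the signal, was almost absent with overexpression. It was counted 92, 66 and 20 times in the knockout libraries and 2, 3 and 0 times in the overexpression libraries, in replicate order. No overexpression library reached the lowest knockout library. The ratio of summed counts per effective depth was 36.0, with a 95% exact interval of 15.1 to 112 that covers counting error only. The log2 change came to -5.06, SE 0.91 (edgeR adjusted p = 0.00312). It was -5.81 without overexpression replicate 2 and -4.41 without overexpression replicate 3, where the group's 3 libraries had 5 counts in all, and the adjusted p ranged from 9.42e-07 to 0.017 over the 13 alternatives.

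Of the 3 Gli genes, Gli1 and Gli2 fell and Gli3 did not pass the threshold. Gli1 (chromosome 10, 127329882 to 127341974, minus strand) encodes an activator whose own gene is a standard readout of pathway activity. It had 100, 229 and 365 counts with knockout (2.93, 7.57 and 10 CPM) and 12, 12 and 30 with overexpression (0.366, 0.406 and 0.759 CPM). The knockout libraries varied widely among themselves, and all lay above the overexpression libraries. The log2 change came to -3.72, SE 0.54 (edgeR adjusted p = 0.000937), a 13.2-fold fall.

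Gli2 (chromosome 1, 118834132 to 119053619, minus strand), the main activator downstream of Smoothened, showed the steepest fall of the 9 genes by the fitted change. It had 228, 293 and 312 counts with knockout (6.68, 9.69 and 8.55 CPM) and 3, 5 and 6 counts with overexpression. The knockout libraries were close to each other, and the overexpression libraries sat near the floor of 3 counts. The log2 change came to -5.88, SE 0.37 (edgeR adjusted p = 8.07e-06), and the ratio of summed counts was 60.1 with a 95% exact interval of 35.6 to 110.

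Gli3 (chromosome 13, 15463235 to 15730026, plus strand), which acts mainly as a repressor when no ligand is present, had 48.5, 43.6 and 42.5 CPM with knockout and 40.5, 30.7 and 37.0 CPM with overexpression. Each overexpression library was below each knockout library, but by little, with a log2 change of -0.32, SE 0.16 (edgeR adjusted p = 0.16). Its adjusted p ranged from 0.00019, under the scaling to epithelial markers, to 0.391 over the alternatives.

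Ratios of counts within a library do not depend on how libraries are scaled. The ratio of Gli3 to Gli2 counts was 7.26, 4.51 and 4.97 in the knockout libraries and 443, 182 and 244 in the overexpression libraries. The ratio of Ptch1 to Gli1 counts was 11.1, 3.39 and 2.16 with knockout and 123, 112 and 71.0 with overexpression. The ratio of Ptch1 to Smo counts was 0.311, 0.229 and 0.205 with knockout and 0.530, 0.340 and 0.535 with overexpression. In each of these, and for Gli3 to Gli1, the groups did not overlap and overexpression was higher. For Ptch1 to Gli1 this follows from the levels above, which lay apart in opposite directions, and adds no separate evidence. A two-sided exact permutation test gave p = 0.1 for each of the 4 ratios (adjusted p = 0.1), which is the smallest that 3 libraries against 3 allow.

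Per kilobase of exon, Smo had the highest level in both groups, with means of 19.1 ± 0.746 and 19.0 ± 4.49 CPM per kilobase (SD, n = 3 each) for knockout and overexpression. With knockout, Sufu and Gli3 followed at 5.0 and 4.68 CPM per kilobase and their libraries overlapped. Next came Ptch1, Gli1 and Gli2 at 1.87, 1.37 and 1.21 CPM per kilobase, where neighbours in the order overlapped, and Hhip at 0.199. With overexpression, Sufu was at 5.06, above Gli3 at 3.76 and Ptch1 at 3.4 CPM per kilobase, whose libraries overlapped. All other members were at or under 0.102 CPM per kilobase, the mean of Gli1, and Gli2 and Hhip came last at 0.0200 and 0.00597. With the longest transcript as the length, Sufu and Gli3 were at 8.5 and 5.49 CPM per kilobase with knockout and their libraries no longer overlapped, and Ptch1 (4.64) came before Gli3 (4.42) in the overexpression group.

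The genes that fell were measured in libraries that also differed in stromal markers. All 10 fibroblast markers fell, with log2 fold changes from -9.98 to -6.91, so Gli1, Gli2 and Hhip fell by less than any of the 10 by the fitted change. The 8 mural cell markers summed to 483 to 607 CPM with knockout and 92.3 to 131 CPM with overexpression. Notch3 held most of the overexpression sum, at 59.1, 73.7 and 63.9 CPM against 53.5, 29.9 and 29.8 CPM with knockout. It was the 1 mural marker called higher, the other 7 were called lower, and the median log2 fold change of the list was -5.1. The 8 dermal papilla markers summed to 122, 90.6 and 44.5 CPM in knockout replicates 1, 2 and 3, mostly from Crabp1, and to 2.84 to 5.77 CPM with overexpression, where Rspo3 had no counts. White blood cell markers (10 genes) summed to 35.4, 70.3 and 238 CPM with knockout and to 8.47 to 12.8 CPM with overexpression, and endothelial markers (8 genes) to 33.1, 53.8 and 121 CPM and to 12.5 to 19.7 CPM. Cd68 held most of the white blood cell sum with overexpression (11.2, 7.78 and 6.85 CPM, against 3.08, 6.71 and 8.61 CPM with knockout). Tek held most of the endothelial one (16.9, 9.34 and 15.1 CPM, against 9.67, 24.7 and 34.4 CPM). The median log2 fold change of the tested genes was -5.80 for white blood cell and -4.12 for endothelial markers. Schwann cell markers (8 genes) summed to 71.4 to 111 CPM with knockout and to 146 to 192 CPM with overexpression, with Foxd3 at 0 in all overexpression libraries. Erbb3, which epithelial cells also express, held most of that sum, at 88.3, 42.8 and 69.2 CPM with knockout and 165, 129 and 122 CPM with overexpression, while Sox10 and Cdh19 peaked in knockout replicate 2. Within the knockout group, Gli1 was lowest in replicate 1. That library had the lowest fibroblast, white blood cell and endothelial sums but the highest mural, dermal papilla and Schwann cell sums. The dermal papilla and Schwann cell ranks came from Crabp1 (115, 78.8 and 34.2 CPM in replicates 1, 2 and 3) and Erbb3. Most other genes of those lists were highest in replicate 2 or 3. Hhip was lowest in replicate 3, which had the lowest epithelial sum and the highest white blood cell and endothelial sums. The dermal papilla sum was also lowest there, a rank that came from Crabp1. The part of these cells in the falls of Gli1, Gli2 and Hhip was not tested.

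**Figure D3:**
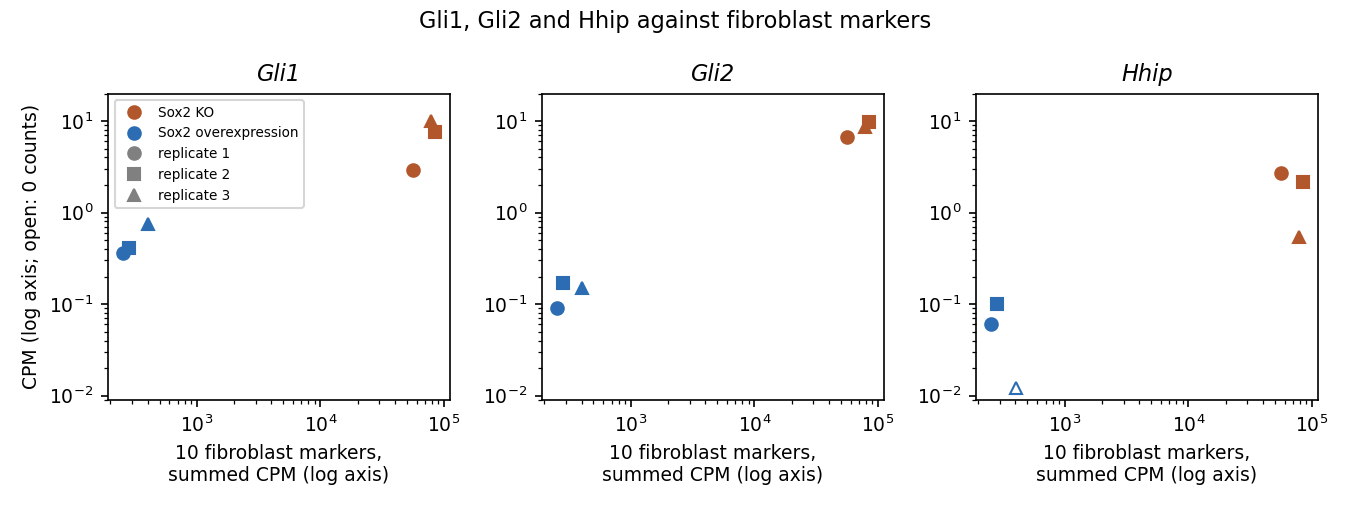
Level of Gli1, Gli2 and Hhip (CPM, log axis) against the summed level of 10 fibroblast markers (CPM, log axis) in each library, with open symbols for 0 counts. The groups form separate clusters on both axes, so no correlation is given, and within the knockout cluster Hhip and Gli1 are ordered differently.

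A list of 46 other Hedgehog genes, grouped by role, was read from the same fit. Of these, 43 were tested, 6 were higher and 12 lower past the threshold, against 13.6% and 18.0% of all tested genes. The median log2 fold change was -0.07. The groups did not overlap for 23 of the 43, close to the 50.9% of all tested genes for which they did not. The other 25 had log2 fold changes between -1.37 (Lrp2) and 0.46 (Ccnd2), and Dhh, Foxf2 and Mycn did not pass the filter.

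Of 5 tested genes that act in reception of the ligand, 4 were lower and 0 higher, against 18.0% and 13.6% of all tested genes. Gas1, a co-receptor that helps ligand reach Patched1, had 96.0, 156 and 116 CPM with knockout and 3.51, 3.59 and 4.48 CPM with overexpression, a log2 change of -4.99 (edgeR adjusted p = 2.09e-06). Boc, a co-receptor of the immunoglobulin family, had 31.6, 31.1 and 21.6 CPM and 0.305, 0.304 and 0.607 CPM, a log2 fold change of -6.07. Cdon, its close relative, fell less, from 115 ± 4.74 to 45.1 ± 5.42 CPM (SD, n = 3 each), and its log2 change was -1.35. All 3 co-receptors were thus lower in every overexpression library, by sizes that differed widely. Gpc3, a glypican that binds ligand and restrains the signal, fell from 123 ± 56.3 to 0.514 ± 0.208 CPM (SD, n = 3 each), and its log2 change was -7.88. In edgeR, the adjusted p was 3.85e-06 for Boc, 0.000179 for Cdon and 7.36e-06 for Gpc3.

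Among the 5 tested genes of ligand making and release, 3 were lower and 1 was higher, against 18.0% and 13.6% of all tested genes. The Scube genes encode secreted proteins that carry lipid-modified ligand away from the cell, and they split. Scube1 had 371, 223 and 315 counts with knockout and 5, 1 and 7 with overexpression, and Scube2 23, 51 and 56 against 0, 2 and 2. Their log2 changes were -6.12 and -4.92 (edgeR adjusted p = 2.33e-05 and 0.00126). Scube3 had 43, 111 and 5 counts with knockout and 470, 1035 and 975 with overexpression, a log2 change of 3.89, SE 0.82 (edgeR adjusted p = 0.00701). Without knockout replicate 2, that of Scube3 was 5.15. Scube3 was the one gene of the list that stayed higher past the threshold under the scaling to epithelial markers. Hhat, the acyltransferase that adds palmitate to the ligand, was lower by 1.04 on the log2 scale (adjusted p = 0.0388, edgeR), with adjusted p-values up to 0.121 when 1 library was left out.

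Of 18 tested genes of the cilium and of transduction, 14 did not pass the threshold, which 31.6% of all tested genes passed. Evc and Evc2, neighbouring genes whose proteins pass the Smoothened signal on at the base of the cilium, had 447, 758 and 917 counts and 444, 702 and 880 counts with knockout. Each had 0, 2 and 2 counts with overexpression. The ratio of summed counts was 536 for Evc (95% exact interval 209 to 1970) and 512 for Evc2 (200 to 1880), the largest of the pathway genes with few counts in a group. Kif7, a ciliary kinesin that sets Gli activity, was lower by 0.91 on the log2 scale (adjusted p = 0.0423), and Tulp3, which carries Gpr161 into the cilium, was higher by 0.59 (adjusted p = 0.0295), both in edgeR. Under the scaling to epithelial markers Tulp3 was lower past the threshold, at -0.65 (edgeR adjusted p = 0.0262). Ift88, Ift172, Kif3a and Dync2h1, which serve transport along the cilium, did not pass the threshold.

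Of 9 tested genes that phosphorylate or degrade Gli proteins, 7 did not pass the threshold, which 31.6% of all tested genes passed. Fbxw11 and Spop, both adaptors of ubiquitin ligases, had log2 changes of 0.49 and 0.43 (edgeR adjusted p = 0.0265 and 0.0455). Under the scaling to epithelial markers both were lower past the threshold, at -0.70 and -0.79 (edgeR adjusted p = 0.0133 and 0.0109). Of 6 tested genes reported elsewhere as Hedgehog targets, 2 were higher and 2 lower, against 13.6% and 18.0% of all tested genes. Ccnd1, which encodes cyclin D1, had 304, 302 and 272 CPM with knockout and 627, 795 and 582 CPM with overexpression, a log2 change of 1.19 (edgeR adjusted p = 0.00104), which was -0.02 under the scaling to epithelial markers. Foxf1, a forkhead factor of mesenchyme, had 65, 47 and 39 counts with knockout and 237, 253 and 150 with overexpression, a log2 change of 2.11 (edgeR adjusted p = 0.00353). Under that scaling Foxf1 was at 0.96 (adjusted p = 0.0562). Sfrp1, a secreted Wnt inhibitor, fell from 82.5 ± 25.3 to 0.829 ± 0.346 CPM (SD, n = 3 each), with edgeR's adjusted p at 5.25e-06, and Foxl1 was lower by 1.29 on the log2 scale (adjusted p = 0.0485, edgeR). The reported targets thus did not share a direction.

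Of the 18 calls in this list, 12 held in all 6 fits that left out 1 library. The calls of Hhat, Kif7, Tulp3, Spop, Fbxw11 and Foxl1 were lost in at least 1 of those fits, and the count of higher genes went from 6 to 3 without knockout replicate 1, 2 or 3. Exons of Gas1, Scube3, Gli3, Ccnd1, Kif7 and Gli1, among others, each share bases with an opposite-strand gene that had counts of its own. Those of Shh do so with 9530036O11Rik (446 bases). Over all libraries, the partner with the longest overlap had 26 counts for Shh, 11 for Kif7 and 1 for Gli1. The use of strand in counting is not given in the sources used here, so a share of the counts of these genes could belong to the partner.

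**Figure D4:**
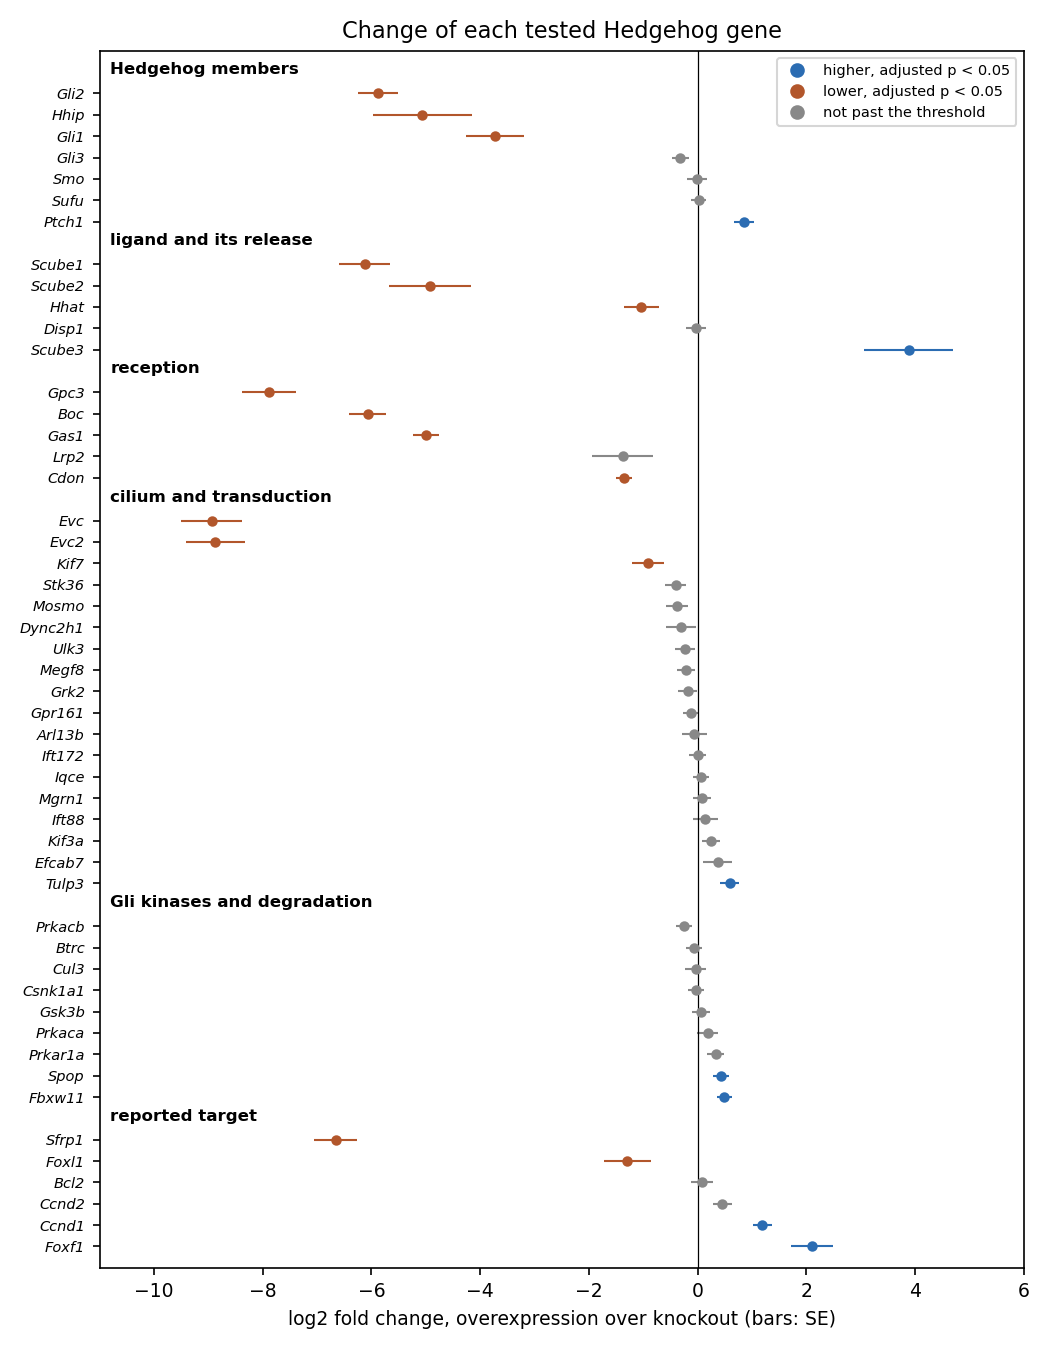
Log2 fold change, overexpression over knockout, of the 7 tested Hedgehog genes described above and of 43 other tested Hedgehog genes by role, with bars for the standard error. Genes of reception lie left of 0 and most genes of the cilium and of Gli degradation lie near 0.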

How the data were processed

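The authors deposited un-normalized whole-number counts for each gene, 1 column per library, and columns were matched to samples through the labels. The submitters' processing notes name kallisto 0.44.0 and the build mm10. The counting step, annotation and strand setting are not given in the sources used here. Of 55481 rows, 96 are spike-in or construct sequences, which were left out; they held at most 2.23e-05% of a library's counts. Symbols, positions and exon lengths are from GENCODE M21 (GRCm38).

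Low genes were removed by filterByExpr (at least 10 counts, total at least 15), libraries were scaled by TMM, and groups were compared in edgeR 4.0.16 (quasi-likelihood, R 4.3.3), with 1 fit over all 6 libraries, group as the only term, Benjamini-Hochberg adjustment over 18504 genes and a threshold of 0.05. CPM uses the TMM-scaled library size. The standard error is the log2 fold change divided by the square root of F.

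The floor is 3 counts, or 0.0759 to 0.101 CPM. Intervals and floors cover counting error only. Named genes are the 9 members, Sox2, called genes of the list of other Hedgehog genes, marker genes that hold most of a list or are at 0, and the genes most like each called member. Uncalled genes named by role, and the follicle genes, Sox10 and Cdh19, were chosen after their values were seen. The alternatives were RLE and upper-quartile normalization, scaling to epithelial markers, no filter, robust dispersion, DESeq2 1.42.0, the replicate number as a block and leaving out each library. A further pathway gene is not reported here and enters no count of that list. Members and lists were chosen with earlier results of these data known. The labels give no batch.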

Additional observations from a re-analysis of the deposited data

How the results depend on the processing

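The calls of Gli1, Gli2 and Hhip kept their direction and an adjusted p under 0.05 in all 13 alternatives, and that of Ptch1 in all but the scaling to epithelial markers. That scaling (median ratio of the epithelial list) gave log2 fold changes of -0.33 for Ptch1, -1.20 for Sufu, -0.65 for Tulp3, -0.79 for Spop, -0.70 for Fbxw11 and -0.016 for Ccnd1, against positive values with TMM. It called 329 genes higher and 14026 lower, where TMM scaling called 2519 and 3329; among the 9 Hedgehog genes 0 higher and 6 lower, where TMM scaling called 1 and 3; and among the other Hedgehog genes 1 higher and 39 lower, against 6 and 12. The shift follows from its construction, since epithelial markers were higher with overexpression.

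Leaving out 1 library gave 1446 to 2599 higher genes in all (1446 without knockout replicate 2, 1610 without knockout replicate 3) and 3 to 7 higher genes among the other Hedgehog genes. Smo, at -0.01, had 0.008 with no filter, and -0.19 to 0.153 when 1 library was left out (0.029 without knockout replicate 2, 0.153 without overexpression replicate 1, 0.049 without overexpression replicate 3). Sufu, at 0.02, had -0.043 with upper-quartile normalization, and -0.031 to 0.093 when 1 library was left out (-0.031 without knockout replicate 2, -0.003 without overexpression replicate 2). No value of either passed the threshold outside the epithelial scaling.

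Replicate numbers did not pair the libraries: the correlations of same-numbered deviations were 0.0508, 0.0223 and -0.0399 across genes, and knockout replicate 2 correlated best with overexpression replicate 3. With the replicate block, 2416 genes were higher and 3177 lower, 1 and 3 among the 9 Hedgehog genes and 5 and 10 among the others. Hhat, Spop and Foxl1 lost their calls under the block. Low counts limit Hhip and Gli2 with overexpression, and the spread between libraries at low counts limits Shh and Ihh.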

Other observations

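For each of the 4 called members, the 3 genes most like it were taken as those with the smallest root mean square difference of centred log2 CPM over the 6 libraries, among 11150 candidates. For Ptch1 these were Pard3, a cell polarity scaffold (0.08), Fosl1, a subunit of the AP-1 transcription factor (0.08), and Wee1, a kinase that delays mitosis (0.10). Pard3 had 144, 128 and 108 CPM with knockout and 237, 231 and 261 CPM with overexpression. For Gli2 they were Sec16b (0.13), Oaf (0.19) and Ttc28 (0.20), and for Gli1 they were Adm, which encodes adrenomedullin (0.20), Nfia (0.25) and Naprt (0.27). Adm had 18.3, 35.6 and 54.5 CPM with knockout and 2.01, 3.01 and 3.67 CPM with overexpression. For Hhip they were Prl2c2 (0.33), Tnfrsf21 (0.44) and Mylk (0.56). With 6 libraries in 2 clusters, such likeness is mostly the shared difference between groups.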
